A study of Mus musculus with 22 samples.

Results

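The phylum Bacteroidetes held 17 of the 72 rows in the 16S rRNA tables of lung tissue and colon contents, 8 of 40 in lung and 9 of 32 in colon. A row is one bacterial lineage, named down to the lowest rank its reads could be given, and the 17 rows were chosen by the second field of that lineage, which names the phylum. They come from 9 distinct lineages, since all 8 lung rows recur in colon and Parabacteroides distasonis has a row in colon only. Each row was described as a percent of all reads of a mouse and as a percent of the reads of its phylum, a scale that does not move when the phylum as a whole does.

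The mice were female BALB/c animals 6 to 8 weeks old, kept as 3 groups in isolated cages, so cage and treatment cannot be told apart. Ova-veh and Ova-res mice had been sensitized with 250 µg ovalbumin (OVA) on day 0 and had received 50 µg into the nose on day 7, a model of allergic asthma. From day 1 to day 14 Ova-veh mice were gavaged with carboxymethyl cellulose vehicle, and Ova-res mice with 100 mg/kg resveratrol (RES), a plant polyphenol, in the same vehicle. For naive mice the study's text gives no separate treatment and names no gavage. In contrasts with them OVA, the aluminum hydroxide injected with it and the gavage vehicle cannot be told apart. In Ova-res against naive mice RES cannot be told apart from these either. The lung table covers 3 mice of each group, and the colon table covers 5 naive mice and 4 of each other group. For lung the study states that some mice were left out by a setting of the classification platform, and the sources used here do not name them. For colon they state no such exclusion.

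The Bacteroidetes of the gut are Gram-negative anaerobes that, with Firmicutes, make up most of the bacteria of the mouse intestine. They break down plant and mucus polysaccharides and release acetate, propionate and succinate. S24-7, now called Muribaculaceae, is the leading family of the mouse gut. Bacteroides and Prevotella are genera of glycan degraders, Odoribacter ferments to short-chain fatty acids that include butyrate, and Rikenellaceae is a bile-tolerant family to which the uncultured genus AF12 belongs. A share of reads gives neither the number of bacteria nor their 16S gene copies per cell, which cannot be told apart here, and a higher share of one row lowers the shares of the others.

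The deposited shares were rounded to 0.1% of reads, so a row listed at 0 held under 0.05%. The listed rows summed to between 96.2 and 97.3% of reads in lung and between 96.9 and 99.0% in colon. Read numbers were not available here, so the depth is unknown, no counting interval can be given, and no extraction blank was analysed here. All 17 rows belonged to the order Bacteroidales. Of 8 families of intestinal Bacteroidetes in a list, 5 were found in lung and 6 in colon, and they held 7 of the 8 lung rows and 8 of the 9 colon rows. The remaining row in each tissue was Bacteroidales with no family. None of 5 classes and orders of Bacteroidetes that live mostly in soil, water or reagents had a row in either table. Both lists were drawn up by hand and do not consider other habitats of the listed families. Reads outside the listed rows were not seen, so a missing row does not show absence. The source of the reads was not tested.

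In lung, Bacteroidetes made up 37.3, 38.8 and 37.8% of reads in the naive mice, 37.4, 39.3 and 41.0% in the Ova-veh mice and 38.1, 37.6 and 38.0% in the Ova-res mice. The groups overlapped, and the 9 mice lay within 4 percentage points of each other. An exact test of 3 mice against 3 cannot give a p below 0.1, so no lung contrast could reach 0.05 by it. The Ova-res mean differed from the Ova-veh mean by -1.33 percentage points (two-sided exact permutation p = 0.4, 0.6 after Benjamini-Hochberg adjustment over the 3 contrasts in 2 tissues), by -0.450 without Ova-veh mouse 3 and by -2.25 without Ova-veh mouse 1. The log2 ratio of Bacteroidetes to Firmicutes was -0.44 ± 0.040 in the naive, -0.35 ± 0.12 in the Ova-veh and -0.43 ± 0.014 in the Ova-res lungs (SD, n = 3 each), with exact permutation p between 0.3 and 0.9.

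The order of the rows in lung hardly varied. S24-7 ranked 1st, Odoribacter 2nd, Prevotella 3rd, Bacteroides acidifaciens 7th and AF12 8th in all 9 mice, and only Rikenellaceae, unranked Bacteroidales and Bacteroides exchanged places, between ranks 4 and 6.

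**Figure D1:**
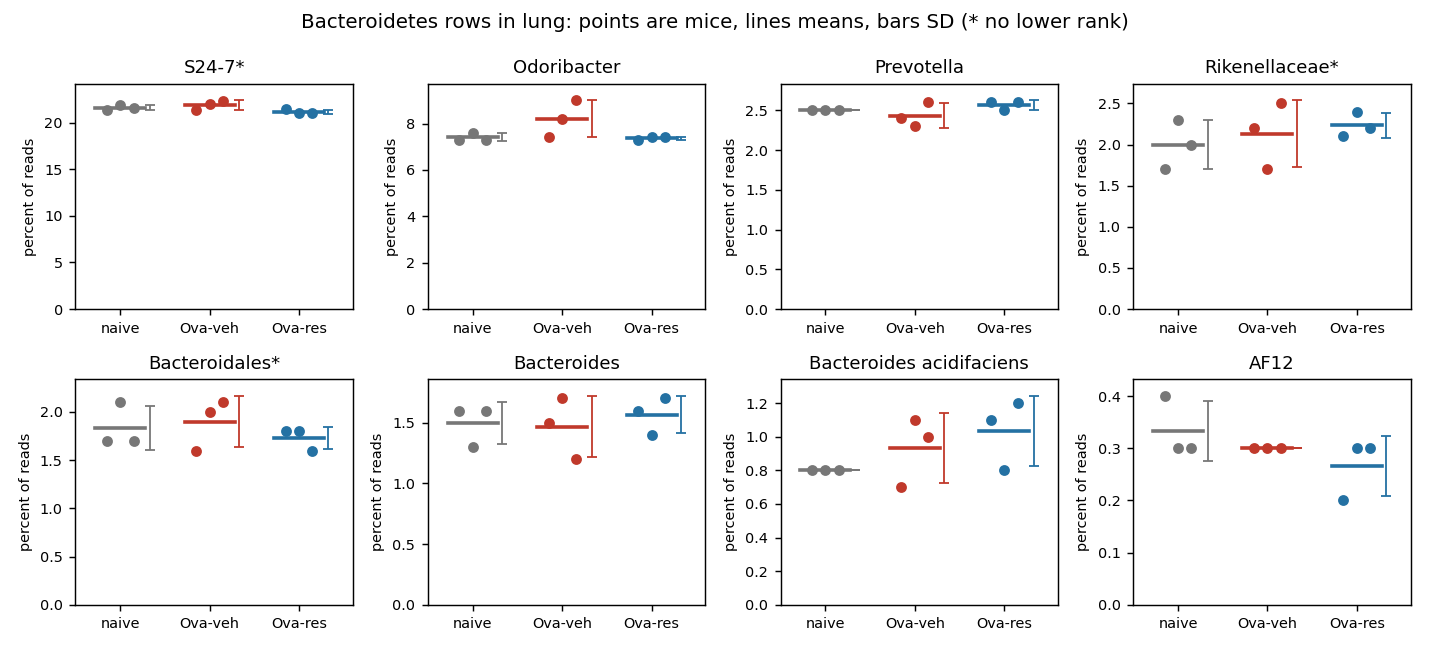
Each point is the percent of 16S reads (y axis, from 0, a scale of its own in each panel) that one lung gave to one Bacteroidetes row by group (3 mice each), with the mean as a line and the SD as a bar. S24-7 stayed between 21.0 and 22.3% in all 9 mice, and 2 of the 3 Ova-veh mice lay above all others for Odoribacter.

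S24-7 held 21.3, 21.9 and 21.6% of reads in the naive, 21.3, 22.0 and 22.3% in the Ova-veh and 21.4, 21.0 and 21.0% in the Ova-res lungs. Its coefficient of variation over all 9 mice was 2.10%. As a percent of the phylum it was 57.1, 56.4 and 57.1 in the naive, 57.0, 56.0 and 54.4 in the Ova-veh and 56.2, 55.9 and 55.3 in the Ova-res mice. On that scale all Ova-res values lay below all naive values, by a gap of 0.275 points, which is smaller than the 0.574 points by which rounding can move such a value.

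Odoribacter was the second row of the lung, with 7.3, 7.6 and 7.3% of reads in the naive, 7.4, 8.2 and 9.0% in the Ova-veh and 7.3, 7.4 and 7.4% in the Ova-res mice. Ova-veh mice 2 and 3 had the highest values and Ova-veh mouse 1 equalled the top of the Ova-res group. Odoribacter stood at -0.833 and S24-7 at -0.733 of the -1.33 points by which the mean of the phylum in the Ova-res group differed from that in the Ova-veh group. The change on the log2(percent + 0.01) scale was -0.15 (SE 0.068, limma adjusted p = 0.521) in Ova-res against Ova-veh mice and 0.14 (SE 0.068, adjusted p = 0.563) in Ova-veh against naive mice. Both contrasts share the Ova-veh mice, and without Ova-veh mouse 3 the changes were -0.080 and 0.074.

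Within the phylum, Odoribacter held 19.6, 19.6 and 19.3% in the naive, 19.8, 20.9 and 22.0% in the Ova-veh and 19.2, 19.7 and 19.5% in the Ova-res lungs. Every Ova-veh value thus lay above every value of both other groups. Prevotella ran the other way, with 6.70, 6.44 and 6.61% in the naive, 6.42, 5.85 and 6.34% in the Ova-veh and 6.82, 6.65 and 6.84% in the Ova-res lungs. For each genus the gap between groups was smaller than the rounding allows for: 0.105 and 0.198 points for Odoribacter against the Ova-res and naive groups, where rounding can move a value by 0.286, and 0.232 and 0.0262 for Prevotella, where it can move each of the compared values by 0.185. The log2 change of Prevotella in Ova-res against Ova-veh mice was 0.13 (SE 0.052, limma p = 0.0435, adjusted p = 0.590, exact permutation p = 0.1), the only lung row of the phylum with an unadjusted limma p under 0.05.

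As a share of reads Prevotella spanned 2.3 to 2.6% over the lungs, only 3 steps of the rounding. It was 2.5% in each naive mouse, 2.4, 2.3 and 2.6% in Ova-veh and 2.6, 2.5 and 2.6% in Ova-res mice. Bacteroides had 1.6, 1.3 and 1.6% in the naive, 1.5, 1.7 and 1.2% in the Ova-veh and 1.6, 1.4 and 1.7% in the Ova-res mice. The groups overlapped for both genera.

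Bacteroides acidifaciens, a species first isolated from mouse caecum, held 0.8% in each naive lung, 0.7, 1.1 and 1.0% in Ova-veh and 1.1, 0.8 and 1.2% in Ova-res lungs. Unranked Bacteroidales had 1.7, 2.1 and 1.7%, then 1.6, 2.0 and 2.1%, then 1.8, 1.8 and 1.6% in the same order of groups. Neither row separated any pair of groups. Rikenellaceae with no lower rank ranged from 1.7 to 2.5% and AF12 from 0.2 to 0.4%, again with overlap. Over all lungs the smaller rows took 3.95% (Bacteroides), 2.40% (Bacteroides acidifaciens) and 4.74% (unranked Bacteroidales) of the phylum on average.

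None of the 8 lung rows passed limma at an adjusted p under 0.05 in any of the 3 contrasts on either scale, where the share called over all tested rows was also 0%. As a share of reads none of the 8 separated 2 groups without overlap in any contrast, against 5% of all 40 lung rows in each. Within the phylum 2 of 8 did so in Ova-res against Ova-veh and 2 in Ova-veh against naive mice, against 11.4% of all 35 rows on this scale in each contrast. In Ova-res against naive mice it was 1 of 8, against 5.71%. At an unadjusted limma p under 0.05 stood 0 of the 8 rows in each contrast on shares of reads, against 3, 1 and 2 of all 40 rows in the order just given. Within the phylum the counts were 1, 0 and 0 of 8, against 2, 1 and 2 of all 35 rows.

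In colon the phylum varied more between mice than in lung. It made up 55.9, 52.3, 64.5, 57.1 and 59.3% of reads in the naive mice, 72.6, 42.1, 69.3 and 29.8% in the Ova-veh mice and 66.5, 71.8, 74.0 and 63.2% in the Ova-res mice. Ova-veh mice 2 and 4 lay below every other mouse, and Ova-veh mice 1 and 3 lay among the Ova-res mice. The means were 57.8% ± 4.51 (SD, n = 5), 53.5% ± 20.9 (SD, n = 4) and 68.9% ± 4.92 (SD, n = 4).

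The mean was 11.1 percentage points higher in Ova-res than in naive mice, with one naive mouse inside the Ova-res range (two-sided exact permutation p = 0.0238, adjusted over 6 comparisons 0.143). In these 2 groups mice of the same number deviated together (correlations 0.15 to 0.37, beside 0.08 to 0.46 in Ova-veh against naive colons). With the replicate number as a block the difference was 11.4 points with exact permutation p = 0.125, the smallest that 4 pairs allow, higher in 4 of 4 pairs. The p stayed between 0.0179 and 0.0571 with any one mouse left out, and was above 0.05 without Ova-res mouse 2 or 3 or naive mouse 1, 2, 4 or 5. Against the Ova-veh group the Ova-res mean stood 15.4 points higher (exact permutation p = 0.314, adjusted 0.6), a difference of 7.54 points without Ova-veh mouse 4 and 21.8 without Ova-veh mouse 1. Ova-veh and naive means differed by -4.37 points (exact permutation p = 0.643, adjusted 0.771).

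The ratio of Bacteroidetes to Firmicutes, on the log2 scale, was 0.48, 0.24, 1.07, 0.61 and 0.69 in naive colons, 1.58, -0.36, 1.36 and -1.15 in Ova-veh and 1.15, 1.53, 1.69 and 1.04 in Ova-res colons. Bacteroidetes thus outnumbered Firmicutes in reads in all mice but Ova-veh mice 2 and 4. The mean was 0.73 higher in Ova-res than in naive mice (exact permutation p = 0.0238, adjusted 0.143), and with the replicate block 0.75 higher at p = 0.125. It was 0.99 higher than in Ova-veh mice (exact permutation p = 0.314, adjusted 0.6), a difference of 0.49 without Ova-veh mouse 4 and 1.40 without Ova-veh mouse 1.

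**Figure D2:**
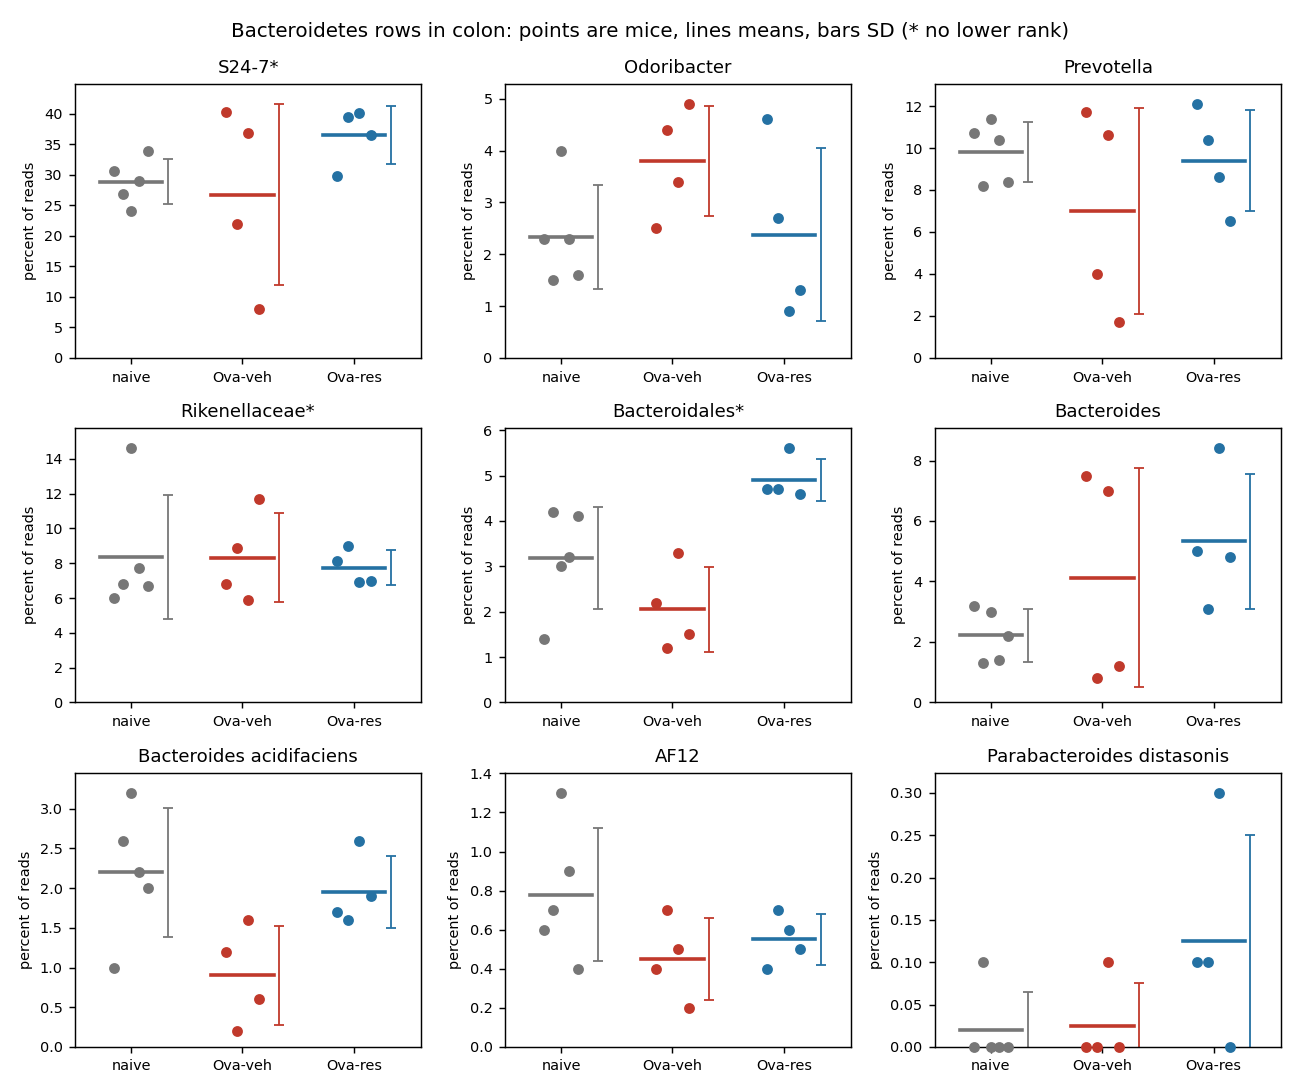
Each point is the percent of 16S reads (y axis, from 0, a scale of its own in each panel) that one colon sample gave to one Bacteroidetes row in 5 naive, 4 Ova-veh and 4 Ova-res mice, with the mean as a line and the SD as a bar. Unranked Bacteroidales lay at 4.6 to 5.6% in the Ova-res mice, above all other mice, while the 4 Ova-veh mice spread from 8.0 to 40.3% for S24-7.

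S24-7 was the first row in 12 of 13 colons. It held 30.7, 26.9, 24.0, 29.0 and 33.9% of reads in the naive, 40.3, 21.9, 36.9 and 8.0% in the Ova-veh and 29.8, 39.5, 40.1 and 36.6% in the Ova-res mice. The Ova-veh group held both the highest and the lowest value of the 13. In Ova-veh mouse 4, the exception, Rikenellaceae came first with 11.7%.

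The mean share of S24-7 was 1.26 times as high in Ova-res as in naive mice, with overlap (exact permutation p = 0.0476, 0.190 after adjustment over the table's 32 rows). With the replicate block it was 0.25, higher in 3 of 4 pairs. The p was above 0.05 without any one of 8 of the 9 mice, all but Ova-res mouse 1, and limma gave a log2 change of 0.34 (SE 0.47, adjusted p = 0.683). Within the phylum S24-7 held 54.9, 51.4, 37.2, 50.8 and 57.2% in the naive, 55.5, 52.0, 53.2 and 26.8% in the Ova-veh and 44.8, 55.0, 54.2 and 57.9% in the Ova-res colons. Once scaled to its phylum, Ova-res against naive means differed by 1.05-fold (exact permutation p = 0.571). Against Ova-veh mice the log2 change was 0.68 (95% interval -0.40 to 1.77) as a share of reads and 0.23 (-0.38 to 0.83) within the phylum.

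Prevotella, which ranked between 2 and 4 among the rows, held 10.7, 8.2, 11.4, 10.4 and 8.4% of reads in the naive, 11.7, 4.0, 10.6 and 1.7% in the Ova-veh and 12.1, 10.4, 8.6 and 6.5% in the Ova-res colons. Its 2 lowest values were those of Ova-veh mice 2 and 4. As a percent of the phylum it was 19.1, 15.7, 17.7, 18.2 and 14.2 in the naive, 16.1, 9.50, 15.3 and 5.70 in the Ova-veh and 18.2, 14.5, 11.6 and 10.3 in the Ova-res mice. The same pair of mice was lowest here too, so Prevotella was low in them beyond the low total of the phylum. No contrast passed, with a log2 change within the phylum of -0.65 (SE 0.32, limma adjusted p = 0.505, exact permutation p = 0.0635) in Ova-veh against naive mice.

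Bacteroides with no species held 3.2, 1.3, 3.0, 1.4 and 2.2% of reads in the naive, 7.5, 0.8, 7.0 and 1.2% in the Ova-veh and 5.0, 3.1, 8.4 and 4.8% in the Ova-res mice. Ova-veh mice 1 and 3 were near the top of the Ova-res range and Ova-veh mice 2 and 4 below all naive mice. In Ova-res colons the mean was 2.40 times that of naive colons, 5.33% ± 2.22 (SD, n = 4) against 2.22% ± 0.879 (SD, n = 5), with exact permutation p = 0.0159, 0.152 after adjustment over the table. The limma log2 change was 1.26 (SE 0.69, adjusted p = 0.385).

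Within the phylum Bacteroides held 5.72, 2.49, 4.65, 2.45 and 3.71% in the naive, 10.3, 1.90, 10.1 and 4.03% in the Ova-veh and 7.52, 4.32, 11.4 and 7.59% in the Ova-res colons. The Ova-res to naive ratio on this scale was 2.02 (exact permutation p = 0.0397, adjusted 0.430). With the replicate block the exact permutation p was 0.125 on both scales, the smallest that 4 pairs allow, higher in 4 of 4 pairs. Both exact p-values depended on single mice. The p for shares of reads was above 0.05 without Ova-res mouse 3 or naive mouse 2, 3, 4 or 5, and the p within the phylum without any one mouse but Ova-res mouse 2.

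Bacteroides acidifaciens showed another order of groups, with naive and Ova-res means above the Ova-veh mean. It held 1.0, 2.6, 3.2, 2.2 and 2.0% of reads in the naive, 1.2, 0.2, 1.6 and 0.6% in the Ova-veh and 1.7, 1.6, 2.6 and 1.9% in the Ova-res colons. One Ova-veh mouse tied with the lowest Ova-res mouse and naive mouse 1 lay inside the Ova-veh range. The Ova-res mean of 1.95% ± 0.451 (SD, n = 4) was 2.17 times the Ova-veh mean of 0.900% ± 0.622 (SD, n = 4), with a log2 change of 1.45 (SE 0.62, limma p = 0.0360, adjusted p = 0.384, exact permutation p = 0.0571).

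The Ova-veh mean of this species was 0.409 times the naive mean of 2.20% ± 0.812 (SD, n = 5), with a log2 change of -1.55 (SE 0.58, limma p = 0.0205, adjusted p = 0.328, exact permutation p = 0.0476). Within the phylum it held 1.79, 4.97, 4.96, 3.85 and 3.37% in the naive, 1.65, 0.475, 2.31 and 2.01% in the Ova-veh and 2.56, 2.23, 3.51 and 3.01% in the Ova-res colons. On that scale the log2 change was -1.36 (SE 0.47, limma adjusted p = 0.313, exact permutation p = 0.0317) in Ova-veh against naive and 1.00 (SE 0.50, adjusted p = 0.396, exact permutation p = 0.0571) in Ova-res against Ova-veh mice. The exact p of Ova-veh against naive was above 0.05 on both scales without any one mouse but naive mouse 1, and with the replicate block it was 0.25 on reads and 0.125 within the phylum.

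Because the 2 Bacteroides rows differed in their order of groups, the species was also set against all reads of its genus, a ratio chosen after its values were seen and given with no test. Bacteroides acidifaciens made up 23.8, 66.7, 51.6, 61.1 and 47.6% of Bacteroides reads in the naive, 13.8, 20.0, 18.6 and 33.3% in the Ova-veh and 25.4, 34.0, 23.6 and 28.4% in the Ova-res colons. Apart from naive mouse 1, the naive colons lay above every OVA-challenged colon. In lung the ratio ran from 31.8 to 45.5% over all groups.

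Parabacteroides distasonis, a gut species with a row in colon only, was close to the rounding limit. It was listed at 0.1% in naive mouse 2 and at 0 in the other naive mice, at 0.1% in Ova-veh mouse 3 and at 0 in the other Ova-veh mice, and at 0.1, 0.1, 0.3 and 0% in Ova-res mice. It was thus above 0 in 3 of 4 Ova-res mice and in 1 mouse of each other group. Its highest share of the phylum was 0.405%, in Ova-res mouse 3. The exact permutation p for Ova-res against Ova-veh mice was 0.371, and no fold or log2 change is given, since against groups mostly at 0 it would be set by the pseudocount.

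Odoribacter held 2.3, 1.5, 4.0, 2.3 and 1.6% of reads in the naive, 2.5, 4.4, 3.4 and 4.9% in the Ova-veh and 4.6, 2.7, 0.9 and 1.3% in the Ova-res colons. The 3 highest values were those of Ova-veh mouse 4, Ova-res mouse 1 and Ova-veh mouse 2, and in both of these Ova-veh mice Prevotella and S24-7 were at their lowest. Within the phylum it held 4.11, 2.87, 6.20, 4.03 and 2.70% in the naive, 3.44, 10.5, 4.91 and 16.4% in the Ova-veh and 6.92, 3.76, 1.22 and 2.06% in the Ova-res colons. Both mice with the smallest phylum thus had the largest Odoribacter part of it.

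The log2 change of Odoribacter in Ova-res against Ova-veh colons was -0.91 (SE 0.55, limma adjusted p = 0.500) as a share of reads and -1.37 (SE 0.61, limma p = 0.0448, adjusted p = 0.396, exact permutation p = 0.171) within the phylum, with the groups overlapping on both scales. In Ova-veh against naive colons the means stood at 1.62 times on reads (exact permutation p = 0.0794) and 2.21 times within the phylum (exact permutation p = 0.0952).

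Rikenellaceae with no lower rank ranged from 6.0 to 14.6% of reads in the naive, 5.9 to 11.7% in the Ova-veh and 6.9 to 9.0% in the Ova-res colons. The group means were 8.36, 8.33 and 7.75%, and the log2 change in Ova-res against Ova-veh mice was -0.06 (95% interval -0.96 to 0.84), positive at 0.12 without Ova-veh mouse 4. Within the phylum its share reached 39.3% in Ova-veh mouse 4 and 21.1% in Ova-veh mouse 2, against 8.51 to 13.5% in all other mice but naive mouse 3 at 22.6%. AF12 lay between 0.2 and 1.3% of reads in every colon, with means of 0.780% in the naive, 0.450% in the Ova-veh and 0.550% in the Ova-res mice and overlap between all groups.

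Unranked Bacteroidales, reads placed in the order but in no family, was the only row of the phylum that separated groups in colon. It held 1.4, 4.2, 3.0, 3.2 and 4.1% of reads in the naive, 2.2, 1.2, 3.3 and 1.5% in the Ova-veh and 4.7, 4.7, 5.6 and 4.6% in the Ova-res colons. Every Ova-res mouse lay above every mouse of both other groups. The Ova-res mean of 4.90% ± 0.469 (SD, n = 4) was 2.39 times the Ova-veh mean of 2.05% ± 0.933 (SD, n = 4) and 1.54 times the naive mean of 3.18% ± 1.13 (SD, n = 5).

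In Ova-res against Ova-veh mice the log2 change of this row was 1.36 (SE 0.47, limma p = 0.0129, adjusted p = 0.287), and the exact permutation p of 0.0286, the smallest for 4 mice against 4, became 0.762 after adjustment over the table. That exact p was 0.0571 without Ova-res mouse 1, 2 or 3. In Ova-res against naive mice the log2 change was 0.71 (SE 0.44, limma adjusted p = 0.385), and the exact permutation p of 0.0238, 0.152 after adjustment, stayed between 0.0286 and 0.0357 when any one mouse was left out. With the replicate block the exact permutation p was 0.125 in both contrasts, the smallest that 4 pairs allow, higher in 4 of 4 pairs.

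Within the phylum unranked Bacteroidales held 2.50, 8.03, 4.65, 5.60 and 6.91% in the naive, 3.03, 2.85, 4.76 and 5.03% in the Ova-veh and 7.07, 6.55, 7.57 and 7.28% in the Ova-res colons. All Ova-res values again lay above all Ova-veh values, by a gap of 1.51 points, which exceeds the 0.112 points by which rounding can move a value. Naive mice overlapped both groups on this scale. The log2 change in Ova-res against Ova-veh mice was 0.90 (SE 0.36, limma p = 0.0286, adjusted p = 0.396, exact permutation p = 0.0286). That exact permutation p is the smallest for 4 mice against 4, and with the replicate block it was 0.125. Groups that do not overlap stay apart without any one mouse, so the exact permutation p, then again 0.0286, adds little to that separation.

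**Figure D3:**
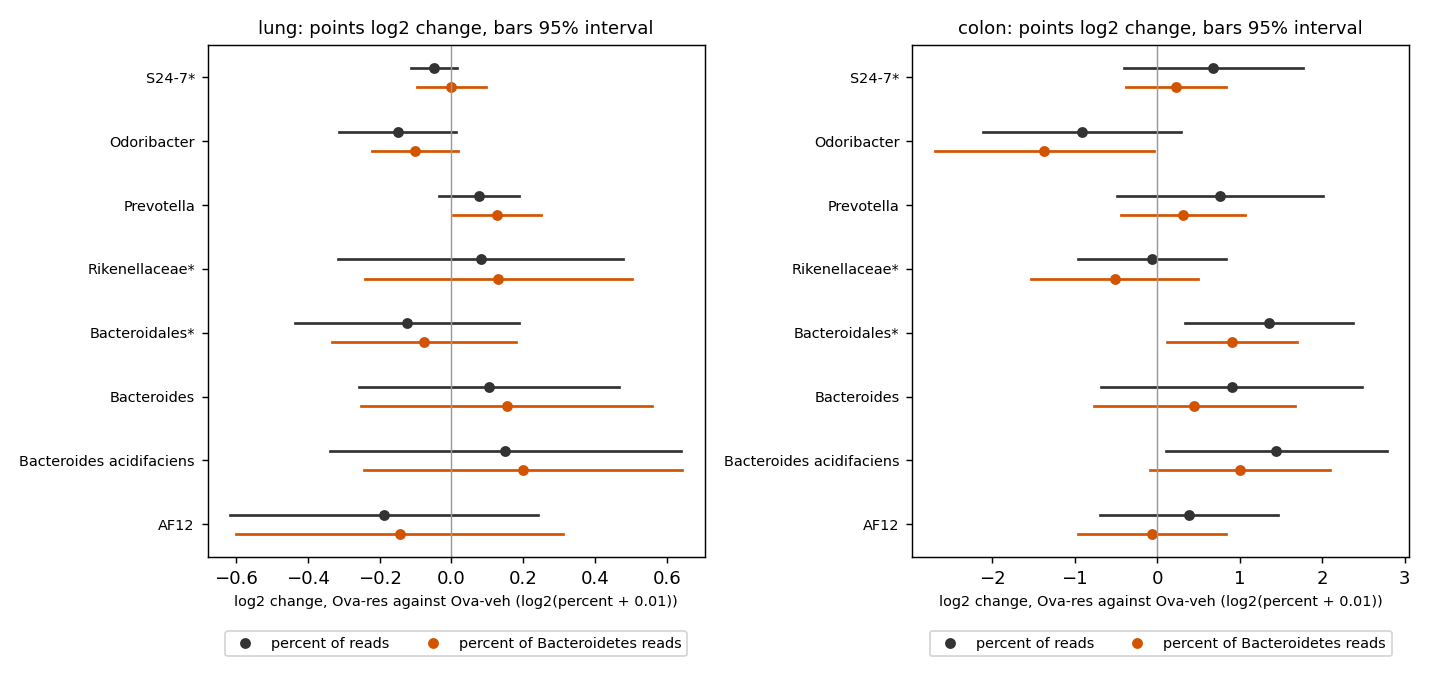
Log2 change of each Bacteroidetes row but Parabacteroides distasonis in Ova-res against Ova-veh mice (x axis, log2(percent + 0.01) scale) in lung, left, and colon, right, as a share of reads (dark) and of the phylum's reads (orange), with 95% intervals from limma and a line at 0. The x axes differ: lung changes lay between -0.19 and 0.20 and colon changes between -1.37 and 1.45, and no row passed at an adjusted p under 0.05.

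None of the 9 colon rows passed limma at an adjusted p under 0.05 in any contrast on either scale, and over all tested rows the share called was 0%. At an unadjusted limma p under 0.05 stood 2 of the 9 rows in Ova-res against Ova-veh, 1 in Ova-veh against naive and 0 in Ova-res against naive mice, the same counts on both scales, against 3, 2 and 0 of all rows on each scale. In the first contrast these were unranked Bacteroidales on both scales, with Bacteroides acidifaciens on reads and Odoribacter within the phylum. As a share of reads 1 of 9 rows separated Ova-res from Ova-veh mice, against 3.12% of all 32 rows, none separated Ova-veh from naive mice, against 0%, and 1 separated Ova-res from naive mice, against 6.25%. Within the phylum the counts were 1, 0 and 0 of 9, against 3.45%, 0% and 0% of 29 rows.

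In Ova-res against Ova-veh colons the log2 change on shares of reads was above 0 for 7 of the 9 rows, with a median of 0.76 (0.72 without Parabacteroides distasonis) beside -0.17 over all 32 rows. Within the phylum it was above 0 for 6 of 9, with a median of 0.31 (0.27 without that species) beside 0.04 over all 29 rows. In Ova-veh against naive mice the median of the 9 rows was -0.35 on reads beside -0.15 over all rows, and in Ova-res against naive mice -0.04 beside -0.07. Under a centred log-ratio the median of all rows moved by -0.18 in the first and by 0.11 in the second of these contrasts, and no reported change of a Bacteroidetes row turned its sign.

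In colon S24-7 made up the largest part of the difference in the size of the phylum in both contrasts of Ova-res mice. It is also the largest row, with group means of 46.9 to 53.0% of the phylum. Of the 15.4 points by which the Ova-res mean exceeded that of Ova-veh mice it made up 9.73, or 63.0%, followed by unranked Bacteroidales with 2.85 points and Prevotella with 2.40, while Odoribacter at -1.43 and Rikenellaceae at -0.575 points ran against the total. Without Ova-veh mouse 4 the part of S24-7 was 3.47 of 7.54 points, or 46.0%. Of the 11.1 points between Ova-res and naive means S24-7 made up 7.60, Bacteroides 3.11 and unranked Bacteroidales 1.72. In Ova-veh against naive mice Prevotella stood at -2.82, S24-7 at -2.13, Bacteroides acidifaciens at -1.30 and unranked Bacteroidales at -1.13 points, and Bacteroides at 1.91 and Odoribacter at 1.46 points partly offset them. The part of S24-7 there was 4.13 points without Ova-veh mouse 4 and -6.63 without Ova-veh mouse 1.

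**Figure D4:**
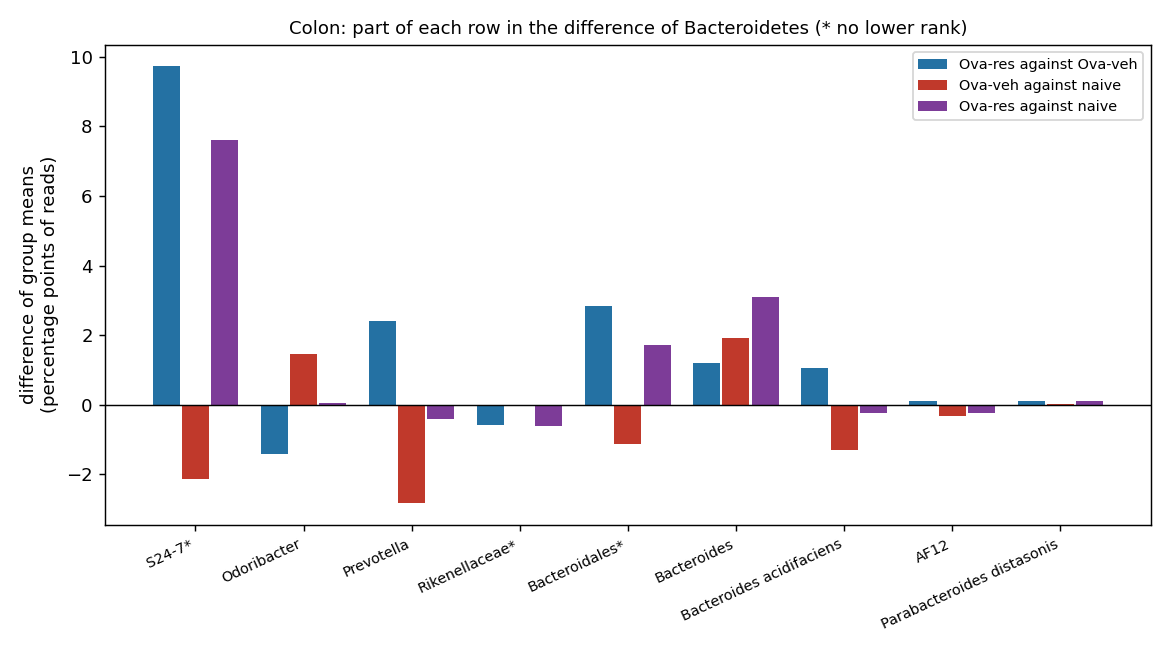
Difference of group means in colon for each Bacteroidetes row (y axis, percentage points of reads) in Ova-res against Ova-veh (blue), Ova-veh against naive (red) and Ova-res against naive mice (purple); the bars of one colour add up to the difference of the phylum. S24-7 has the tallest blue bar at 9.73 points, and Odoribacter has a negative blue and a positive red bar.

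The make-up of the phylum, taken apart from its total, varied most among the Ova-veh colons. The median Bray-Curtis distance between mice of a group, which is 0 for identical make-up and 1 for none shared, was 0.102 in the naive, 0.249 in the Ova-veh and 0.103 in the Ova-res colons, and the 6 Ova-veh distances ran from 0.0417 to 0.454. In lung these medians were 0.0183, 0.0338 and 0.0173. Group explained 21.3% of the variation in colon (test on distances, exact permutation p = 0.256) and 34.2% in lung (exact permutation p = 0.196). In colon it explained 32.7% without Ova-veh mouse 1 (exact permutation p = 0.0793) and 30.2% by Aitchison distance, a distance on log-ratios (exact permutation p = 0.0826). With other mice left out in turn the colon share went down to 18.6% and the exact permutation p up to 0.403. No pair of groups passed, with exact permutation p between 0.183 and 0.357 in colon and between 0.1 and 0.5 in lung. Without Ova-veh mouse 1 the share in lung was 54.0% with exact permutation p = 0.00357. This was the only mouse whose absence put the lung p under 0.05, and with others left out it reached 0.446. By Aitchison distance, or with shares square-rooted, group explained 25.8 to 29.1% in lung (exact permutation p between 0.35 and 0.464).

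**Figure D5:**
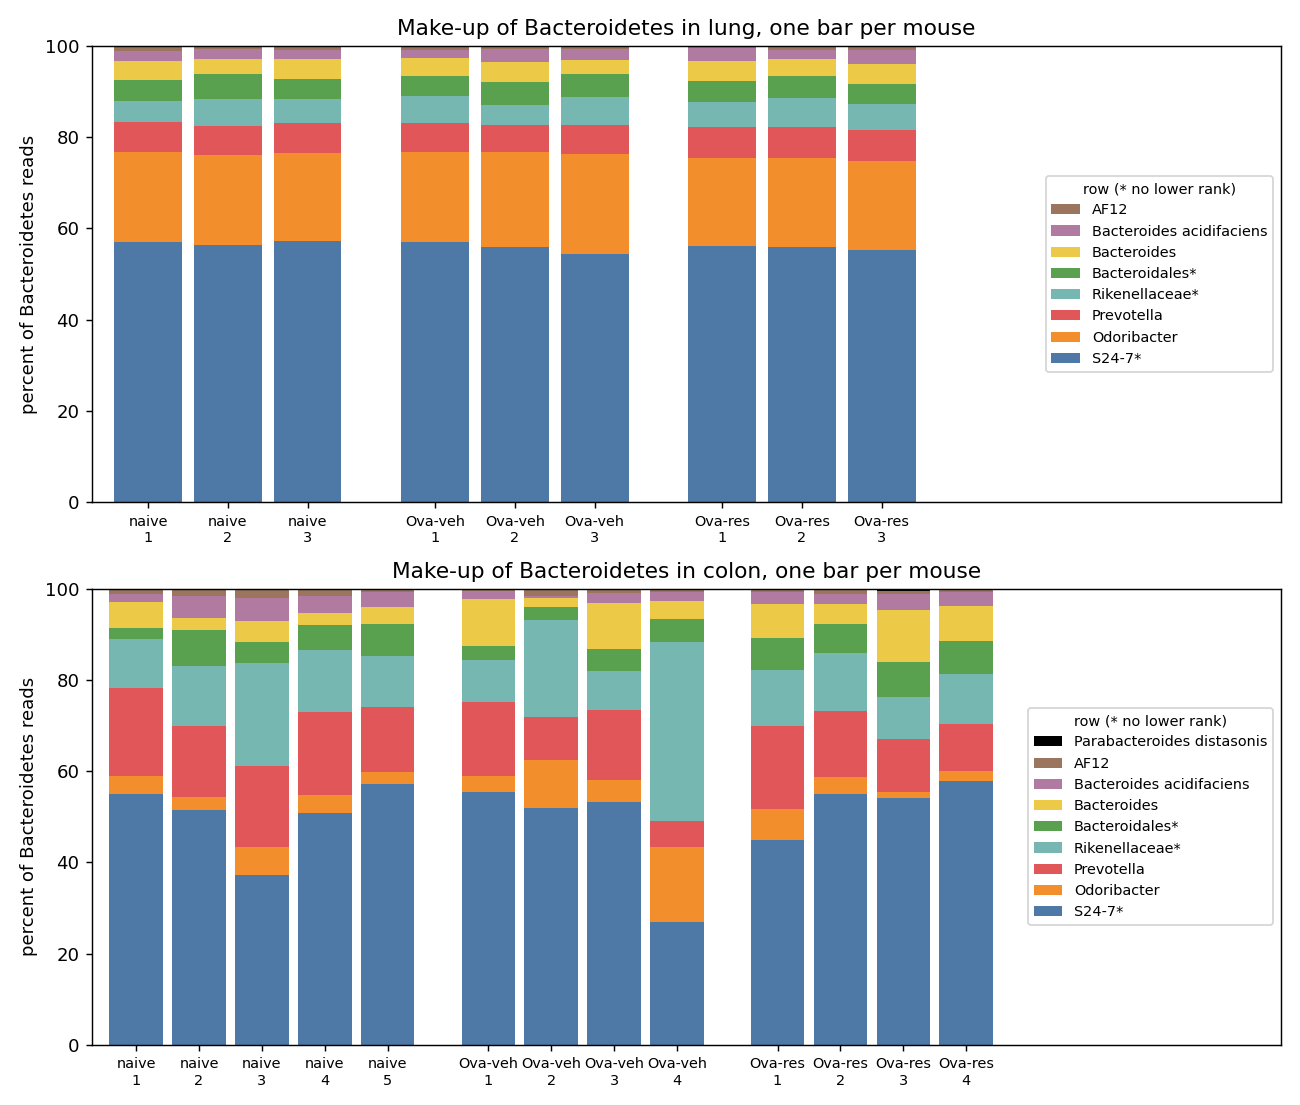
Each bar is 1 mouse and shows the percent of its Bacteroidetes reads (y axis, 0 to 100) that fell to each row in lung (top) and colon (bottom), ordered by group. The 9 lung bars are nearly alike, with S24-7 at 54.4 to 57.1% and Odoribacter at 19.2 to 22.0%, whereas Ova-veh colons 2 and 4 have wide Rikenellaceae and Odoribacter segments.

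The effective number of rows (inverse Simpson index, which equals the number of rows when all are equally large) was 2.68 ± 0.026 in the naive, 2.73 ± 0.072 in the Ova-veh and 2.77 ± 0.035 in the Ova-res lungs (SD, n = 3 each). Every Ova-res lung lay above every naive lung (exact permutation p = 0.1, the smallest for 3 mice against 3, adjusted 0.6). The exact permutation p was 0.2 in Ova-veh against naive and 0.5 in Ova-res against Ova-veh lungs. In colon the effective number was 3.23 ± 0.635 (SD, n = 5), 3.16 ± 0.456 (SD, n = 4) and 3.08 ± 0.476 (SD, n = 4), with exact permutation p between 0.683 and 0.825. It was highest in naive mouse 3 at 4.31 and in Ova-veh mouse 4 at 3.83, where S24-7 held its smallest parts of the phylum.

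Lung and colon tables were made from different samples and kits, so their levels are set side by side without a test. Odoribacter held 7.3 to 9.0% of reads in lung and 0.9 to 4.9% in colon, so its ranges did not overlap. As a percent of the phylum it stood at 19.2 to 22.0 in lung and 1.22 to 16.4 in colon. Rikenellaceae with no lower rank did not overlap either, with 1.7 to 2.5% of reads in lung and 5.9 to 14.6% in colon. Within the phylum its ranges were 4.33 to 6.38% in lung and 8.51 to 39.3% in colon. Prevotella held 2.3 to 2.6% of reads in lung and 1.7 to 12.1% in colon, and S24-7 21.0 to 22.3% and 8.0 to 40.3%. The coefficient of variation of S24-7 over all mice was 2.10% in lung and 29.8% in colon, and that of Odoribacter 7.56 and 47.9%.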

How the data were processed

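The authors amplified 16S rRNA genes from lung tissue and colon contents, sorted the reads into taxa with the Nephele platform, and deposited 1 table per tissue with the fraction of reads of every taxon in every mouse, rounded to 3 decimals. The sources used here do not give the pipeline version, the reference taxonomy or the depth. Lung and colon DNA came from different extraction kits.

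Fractions were turned into percent of reads and, for every phylum with at least 2 rows, percent of that phylum's reads. All rows of a tissue with a mean of at least 0.01% entered limma (version 3.58.1, R 4.3.3) as log2(percent + 0.01), the 3 groups fitted together, and p-values were adjusted over all rows by Benjamini-Hochberg, with 0.05 as the threshold. Phylum totals, single rows and make-up (share of squared Bray-Curtis distances that lies between groups) were tested by two-sided exact permutation over mice with Python 3.11.15 (numpy 2.4.6, pandas 2.3.3, scipy 1.17.1). Limma and the exact test of a difference of means were tried on simulated normal values. These were not rounded and did not sum to a fixed total. Each sample was taken as 1 mouse.

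Every Bacteroidetes row is named. In full are given the row with the highest mean in each tissue, all Bacteroides, Parabacteroides, Odoribacter and Prevotella rows, those with no family, and colon rows with an unadjusted limma p under 0.05 or groups that do not overlap. The members, lists and tests were chosen with earlier results of these data known. In Ova-res against naive mice, same-numbered mice deviated together (correlations 0.21 to 0.48 in lung and 0.15 to 0.37 in colon), a pairing seen in the data and not stated in the labels. In the other contrasts at least 1 correlation was under 0.1, though in Ova-veh against naive colons all were positive, from 0.08 to 0.46. Correlations between mice of different numbers were not computed, so whether a shared number makes mice more alike was not tested. No sequences of the rows were available here, so none is printed.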

Additional observations from a re-analysis of the deposited data

Results flagged for a closer look

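Of 63 groups of 4 or 5 colon mice examined, 10 held a mouse far from the others of its group by Dixon's criterion. Chance meets it in about 1 in 20 groups of independent, normally spread values. Here each row counts on both scales and shares are rounded. In the flagged Parabacteroides distasonis groups all other mice were listed at 0. The count can therefore not be set against that rate. Groups of 3 lung mice were not examined.

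Rikenellaceae stood apart in naive mouse 3, with 14.6% of reads against 6.0 to 7.7% in the other naive mice and 22.6% of the phylum against 10.7 to 13.5%. The same mouse had the highest effective number of Bacteroidetes rows, 4.31 against 2.72 to 3.16. S24-7 was lowest in Ova-veh mouse 4, at 26.8% of the phylum against 52.0 to 55.5% in the other Ova-veh mice. Unranked Bacteroidales reached 5.6% of reads in Ova-res mouse 3 against 4.6 to 4.7%. AF12 held 1.66% of the phylum in Ova-veh mouse 2 against 0.551 to 0.722% in the rest of its group.

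Parabacteroides distasonis was listed at 0.1% of reads in naive mouse 2 and in Ova-veh mouse 3, which is 0.191 and 0.144% of their phylum, and at 0 in every other mouse of those 2 groups. These values are 1 step of the rounding.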

How the results depend on the processing

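No Bacteroidetes row was called by limma under any alternative: pseudocounts of 0.001 and 0.1%, a minimum mean of 0.1% or none, 2 groups in the fit, centred log-ratios, listed taxa scaled to 100%, rows of one name summed, a replicate block, and each mouse left out. With listed taxa scaled to 100% the lung difference of the phylum between Ova-res and naive mice was 0.0276 points in place of -0.0667. With the replicate block the colon difference between Ova-res and naive mice was 11.4 points and that of the log2 ratio to Firmicutes 0.75, both at exact permutation p = 0.125. An exact p of single rows within replicate numbers, added after seeing the data, put none under 0.05, since 4 pairs allow no less than 0.125. The parts of rows with a mouse left out and the medians without Parabacteroides distasonis were added in the same way. With the Shannon index the effective number in Ova-res against Ova-veh colons differed by 0.113 in place of -0.0788. Leaving out each mouse, the phylum's difference ran from -0.400 to 0.350 points in lung (Ova-res against naive), and in colon from -10.8 to 3.51 (Ova-veh against naive) and 9.35 to 12.9 (Ova-res against naive). That of the log2 ratio to Firmicutes ran from -0.014 to 0.026 in lung (Ova-res against naive), and in colon from -0.67 to 0.24 (Ova-veh against naive) and 0.62 to 0.85 (Ova-res against naive). That of the effective number in colon ran from -0.310 to 0.144 (Ova-res against Ova-veh), -0.294 to 0.198 (Ova-veh against naive) and -0.381 to 0.120 (Ova-res against naive). The share of lung make-up explained by group ran from 30.9 to 54.0%. In Ova-res against Ova-veh colons log2 changes that turned sign ran from -0.21 to 0.12 for Rikenellaceae on reads, and within the phylum from -0.25 to 0.28 for AF12, -0.042 to 0.77 for Bacteroides and -0.023 to 0.33 for S24-7. The cause of these shifts was not tested. Unknown read numbers limit the small rows: no interval can be given for shares near the step of 0.1%.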
